A study of Mus musculus with 6 samples.

Results

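The miR-106b-25 and miR-106a-363 clusters are the paralogs of the miR-17-92 cluster, a group of miRNAs known for promoting proliferation. A miRNA is cut from a hairpin, and the arm that is loaded into the silencing complex recognises its targets mainly through the seed, bases 2 to 8 from its 5′ end, so miRNAs with the same seed can bind the same sites whichever locus they come from. The paralog clusters carry the seeds of miR-17, miR-18 and miR-92 over again, and miR-17-92 is known to act on the growth of embryonic cardiomyocytes. The members were the rows of the table with the name miR-106b, miR-93, miR-25, miR-106a, miR-18b, miR-20b, miR-92b or miR-363, on any arm. In all, 8 of the 689 rows were members, and they covered 5 of the 8 names. They were miR-106b, miR-93, miR-25, miR-92b and miR-18b, with an asterisk row, named for the opposite arm of the hairpin, for miR-106b, miR-93 and miR-25. The term main arm stands for the row without an asterisk. The asterisk is part of the name and not a measurement: in 15 of the 168 pairs of such names in the table, the asterisk row was the more abundant one, but in none of the 3 member pairs. miR-106a, miR-20b and miR-363 had no row on either arm, and miR-92b and miR-18b had none for the asterisk arm; these were not analysed here.

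The samples were cardiomyocytes of wild-type Swiss Webster mouse embryos at E16.5, grown on flexible membranes coated with collagen. The labels give 3 cultures held static for 24 hours and 3 that were stretched cyclically by 16% at 1 Hz for the same time. The methods name CD1 mice and a larger number of samples. The only values used here are the authors' mean abundances, 1 per miRNA over the whole experiment, so no level can be given for a single culture or for static and stretched cultures apart. The spread between replicates and the read depth are therefore unknown, no test was possible, and the response of the members to stretch is not described. An abundance is the authors' mean log concentration over both groups, read here as the log2 of a share of the miRNA reads. A mean of logs becomes a geometric mean on the linear scale, which can lie below the mean share. The shares, RPM and percentages of reads below are meant in that sense. The 25 lowest rows, none of them a member, lay from -36.76 to -35.64, far below the next row at -24.52. What such low values stand for is not given in the sources used here, and they may not be measured shares. Over the 689 rows the shares summed to 0.995 when read as base 2, and they are given below also as reads per 1000000 miRNA reads (RPM). A share of reads is not a number of molecules, and it is not per length; the main arms of the members were 21 to 23 nt long.

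The mature sequences of the main arms show how the paralogs repeat the seeds. They were taken from RefSeq on GRCm38.p6 and are written 5′ to 3′ with the seed in capitals. The first seed is that of miR-17, shared by miR-106b and miR-93 and by the unlisted miR-106a and miR-20b.
miR-106b: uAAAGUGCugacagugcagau
miR-93: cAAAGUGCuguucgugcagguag
miR-106a: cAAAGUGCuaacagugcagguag
miR-20b: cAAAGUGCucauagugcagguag
miR-17: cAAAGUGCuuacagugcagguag
miR-20a: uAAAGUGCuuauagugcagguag
The second seed is that of miR-92a, shared by miR-25, miR-92b and the unlisted miR-363.
miR-25: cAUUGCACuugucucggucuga
miR-92b: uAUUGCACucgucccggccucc
miR-363: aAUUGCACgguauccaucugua
miR-92a: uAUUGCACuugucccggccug
The third is the seed of miR-18a, whose paralog is miR-18b.
miR-18b: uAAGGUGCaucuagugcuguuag
miR-18a: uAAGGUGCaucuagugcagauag
In RefSeq, 7 of 1679 mature miRNAs (0.417%) carry the first seed, 6 (0.357%) the second and 2 (0.119%) the third. Outside the seed the paralogs differ. Aligned from the 5′ end, miR-106b matches miR-17 at 18 of 21 bases, miR-93 matches miR-20a at 19 of 23, and miR-25 matches miR-92a at 18 of 21. miR-18b and miR-18a are the closest pair with a member row, at 21 of 23 bases, and their longest common run is 17 bases. miR-92b and miR-92a also have 2 mismatches, at 19 of 21 bases, and their longest common run is 10 bases. No member row has a run of 18 bases, the shortest tag kept by the authors, in common with another RefSeq mature miRNA. But the number of mismatches the mapping allowed is not given in the sources used here. The low value of miR-18b beside miR-18a, and the split of reads between miR-92b and miR-92a, are therefore uncertain.

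The members lie at 3 places in the genome (GRCm38). Mir106b (chr5:138165737-138165818), Mir93 (chr5:138165523-138165610) and Mir25 (chr5:138165321-138165404) lie on the minus strand inside Mcm7, which encodes a subunit of the replicative DNA helicase. Mir106b is intronic in GENCODE, and Mir93 and Mir25 overlap exons only of transcripts annotated as retained introns. In the direction of transcription the order is Mir106b, Mir93, Mir25, with gaps of 126 and 118 bases. The second cluster lies on the minus strand of chromosome X, from Mir106a (chrX:52742503-52742567) over Mir18b (chrX:52742331-52742413) and Mir20b (chrX:52742113-52742192) to Mir363 (chrX:52741693-52741767), with Mir19b-2 and Mir92-2 between Mir20b and Mir363. In the GENCODE annotation only Mir106a overlaps another gene there, the noncoding RNA Kis2 on the same strand, by 5 bases. The other hairpins lie 150 to 796 bases from Kis2, and whether its transcript runs on through them was not tested. Mir92b belongs to neither cluster by position. It lies alone on chromosome 3 (chr3:89227116-89227198), on the minus strand 28 bases from Mtx1, and joins the members by its name and seed.

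miR-25 was by far the most abundant member. Its log2 mean abundance was -8.63 in the authors' deposited values, or 2525 RPM, which ranked 34th of the 689 rows. miR-93 followed at -11.78, or 285 RPM, at rank 100. miR-92b was close behind at -11.80, or 281 RPM, at rank 103, and the ratio of miR-93 to miR-92b was 1.02. miR-106b had -13.55, or 83.7 RPM, at rank 157. These 4 main arms were above the median of all rows, 4.20 RPM. miR-18b was not: it had -22.90, or 0.128 RPM, at rank 595, and only 94 rows were lower. Of these 94, 69 lay outside the set of the 25 lowest rows. The order is that of the means, and without replicate values neighbours such as miR-93 and miR-92b cannot be said to differ.

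**Figure D1:**
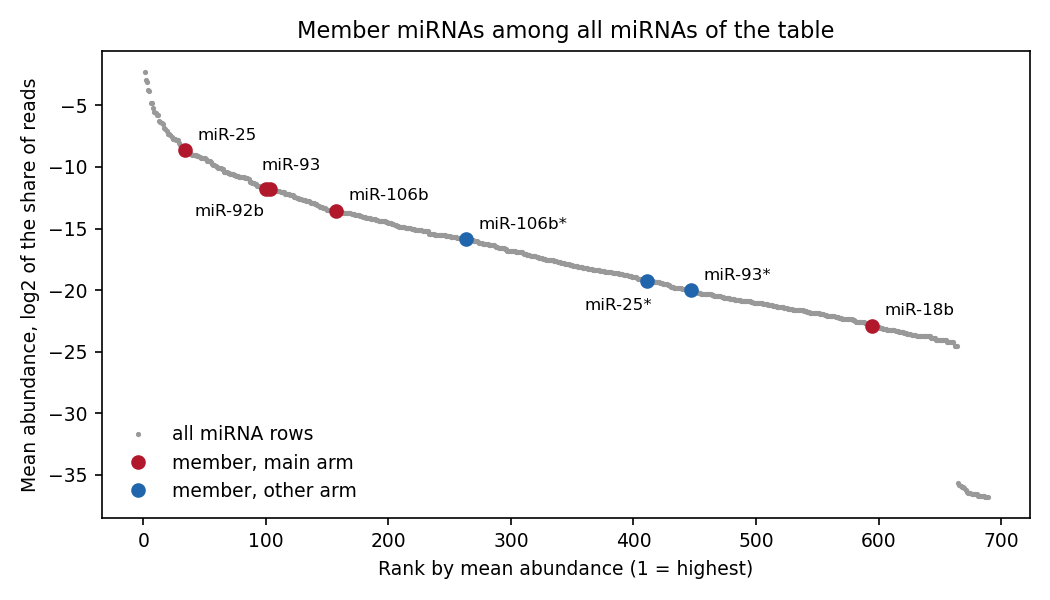
Log2 mean abundance (vertical axis) of the 689 miRNA rows against their rank (horizontal axis), with the main arms of the members in red and their asterisk arms in blue. miR-25 sits at rank 34, miR-93 and miR-92b lie side by side at ranks 100 and 103, and miR-18b is at rank 595; 25 rows that include no member form the step at the lower right.

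In the ranking, miR-25 stood between miR-125b-1-3p (2539 RPM) and miR-199a-5p (2524), and miR-93 between miR-335-5p (294) and miR-152* (284). miR-92b stood between miR-30c (282) and miR-214 (279), and miR-106b between miR-148b* (85.1) and miR-673-3p (78.4). The miRNAs around the asterisk arms were miR-672 and miR-362-3p for miR-106b*, miR-1930 and miR-669f-5p for miR-25*, and miR-34a* and miR-1954 for miR-93*. miR-18b lay between miR-544-5p (0.131) and miR-3057-3p (0.125). In this range the rows were dense, and 93 other rows lay within 1 log2 unit of miR-18b.

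Together the member rows held 0.319% of the miRNA reads, or 3195 RPM. miR-25 alone made up 79.1% of that sum, and the remaining 7 rows had 669 RPM between them. The median of the member rows was 37.2 RPM, beside 4.20 over all 689 rows, and 5 of the 8 were above the latter.

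Within the Mcm7 cluster each later hairpin had the more abundant main arm. From the first hairpin to the last, miR-106b, miR-93 and miR-25 had 83.7, 285 and 2525 RPM. miR-93 exceeded miR-106b 3.41-fold, a log2 difference of 1.77, and miR-25 exceeded miR-93 8.85-fold, a log2 difference of 3.15. From miR-106b to miR-25 the range was 30.2-fold, or 4.92 on the log2 scale.

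The miR-17-92 cluster of chromosome 14 had a narrower range. Its main arms lay between miR-18a, with 30.9 RPM, and miR-92a, with 307, a range of 9.95-fold or 3.32 on the log2 scale. In both clusters the last hairpin, with the miR-92 seed, had the highest main arm. miR-92a and miR-19b are each made from chromosome 14 and from chromosome X with the same mature sequence, so that their reads cannot be assigned to a locus. Summed over main arms, the Mcm7 cluster had 2894 and miR-17-92 had 732 RPM, a ratio of 3.96. The excess lay in miR-25, which by itself exceeded all main arms of miR-17-92 together 3.45-fold.

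Other miRNA neighbours had ranges on both sides of that of the Mcm7 cluster. Of 8 such groups, 5 had a wider range of main arms and 3 a narrower one. The narrowest was that of the muscle miRNAs miR-1a and miR-133a, at 2.23 on the log2 scale, and the widest that of miR-143 and miR-145, at 7.59. miR-1a, miR-133a, miR-24, miR-16 and miR-199a come from more than 1 locus, so the groups that hold one of them mix the reads of several transcripts.

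**Figure D2:**
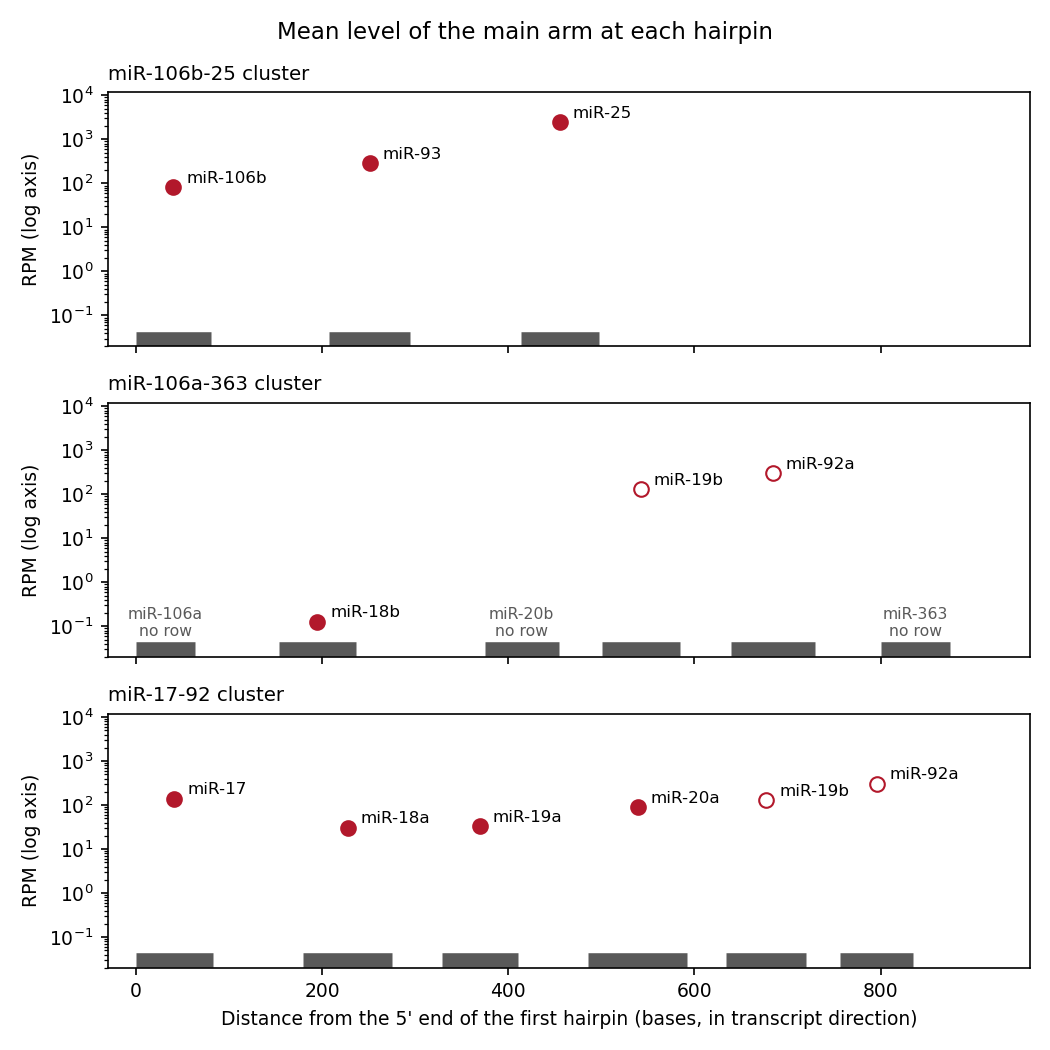
Mean level of the main arm in RPM (log axis) at each hairpin of the 3 paralog clusters, placed by distance in bases from the start of the first hairpin (grey bars are hairpins; open circles are mature miRNAs made at both the chromosome 14 and the chromosome X locus). The level goes from 83.7 to 2525 along the miR-106b-25 cluster, and miR-18b, at 0.128, is the single filled point of the miR-106a-363 cluster.

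Few of the products that tell the chromosome X cluster from the others had a row. RefSeq gives it 9 mature miRNAs that no other locus makes: both arms of miR-106a, miR-18b and miR-20b, the main arm of miR-363 and the asterisk arms of miR-19b-2 and miR-92a-2. Over all miRNAs there were 689 rows beside 1679 RefSeq mature names. The rows carry older names, and which of the 1679 the authors searched for is not given in the sources used here. These numbers therefore give no rate of missing rows to set beside the 9. Of the 9, 1 had a row, miR-18b with 0.128 RPM. Its paralog on chromosome 14, miR-18a, had 30.9 RPM, a difference of 7.92 on the log2 scale or 242-fold. All 10 rows of the miR-17-92 cluster other than miR-19b and miR-92a are named for chromosome 14 alone. Among them the asterisk arm miR-92a-1* had 88.4 RPM while miR-92a-2* had no row. miR-106a matches miR-17 at 22 of 23 bases, and miR-20b matches miR-20a at 21 of 23. With the mapping mismatches unknown, it was not tested whether reads from chromosome X were counted in the miR-17 and miR-20a rows. How a miRNA came to have a row, and so the level below which one is missing, is not given in the sources used here.

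By seed, the members took very different parts of the reads. Of the miR-17 seed, 4 miRNAs had a row, with 598 RPM in all. miR-93 held 47.7% of them, miR-17 23.5%, miR-20a 14.8% and miR-106b 13.99%, so the members held 61.7%. These parts go by the row names, as it was not tested whether miR-106a or miR-20b reads were counted under miR-17 or miR-20a. Here miR-93, and not miR-17, was the most abundant, with a ratio of 2.03 to miR-17. miR-106b and miR-20a were nearly level, at 83.7 and 88.2 RPM.

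The miR-92 seed was more abundant, with 3116 RPM over 4 rows, and miR-25 made up 81.0% of it. miR-92a held 9.86% and miR-92b 9.01%, at 307 and 281 RPM. The fourth row, miR-32, which is made from an intron of Tmem245, had 2.69 RPM. miR-25 exceeded miR-92a 8.22-fold and miR-92b 8.99-fold, and the members together held 90.1% of the reads with this seed. Of the miR-18 seed, with 31.0 RPM, miR-18b held 0.412% and miR-18a the rest. The mature miRNAs with one of these seeds that had no row were miR-106a, miR-20b and miR-6383 for the first and miR-363 and miR-367 for the second. Whether each of these names was among those searched for is not given in the sources used here.

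**Figure D3:**
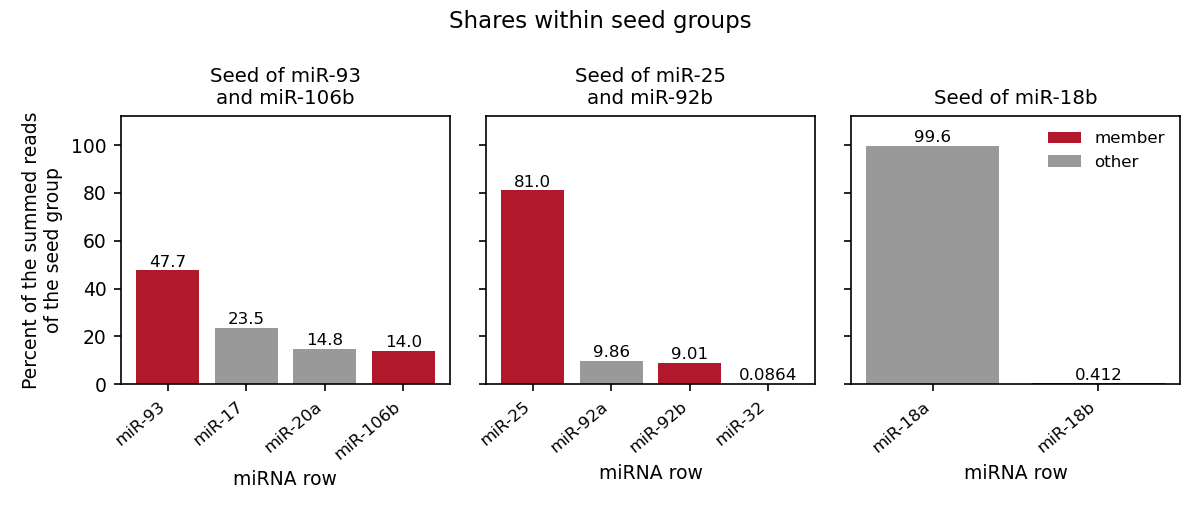
Percent of the summed reads of a seed group (vertical axis, linear) held by each miRNA row with that seed, for the seeds of miR-93, miR-25 and miR-18b; members are red and other miRNAs grey. Members hold 61.7% of the first group, 90.1% of the second and 0.412% of the third.

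The opposite arms of the 3 Mcm7 hairpins had seeds of their own, each found in 0 other mature miRNAs among the 1679 of RefSeq. They are shown because their order of abundance was not that of the main arms.
miR-106b*: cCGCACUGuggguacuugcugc
miR-93*: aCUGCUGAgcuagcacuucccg
miR-25*: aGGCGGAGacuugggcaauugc
miR-106b* had 16.52 RPM, at rank 263, and was the only one of them above the median of all rows. miR-25* had 1.63 at rank 411, and miR-93* had 0.937 at rank 447. miR-106b* thus exceeded miR-25* 10.1-fold and miR-93* 17.6-fold, although its main arm was the least abundant of the cluster.

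The arms of the first hairpin were the least unequal. miR-106b* held 16.49% of the reads of its hairpin, miR-93* 0.327% and miR-25* 0.0645%. On the log2 scale the main arm exceeded the other by 2.34 for miR-106b, by 8.25 for miR-93 and by 10.60 for miR-25. Over all 238 pairs of arms in the table, the median difference between the stronger and the weaker arm was 4.06. A larger difference than that of miR-25 was found in 29 pairs, than that of miR-93 in 52 and than that of miR-106b in 161. Without the 25 lowest rows, a setting chosen after seeing the data, 228 pairs were left and these counts were 19, 42 and 151. In the miR-17-92 cluster, the difference was 5.32 for miR-17, 2.35 for miR-18a, 9.35 for miR-19a and 6.36 for miR-20a. For miR-19b and miR-92a, whose main arms are also made on chromosome X, the difference from the chromosome 14 asterisk arm was 7.44 and 1.80; that of miR-92a, the paralog of miR-25, was the smallest of the cluster. miR-17 and its paralog miR-106b, whose main arms differ 1.68-fold in level, had asterisk arms 39.98-fold and 5.06-fold below them.

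**Figure D4:**
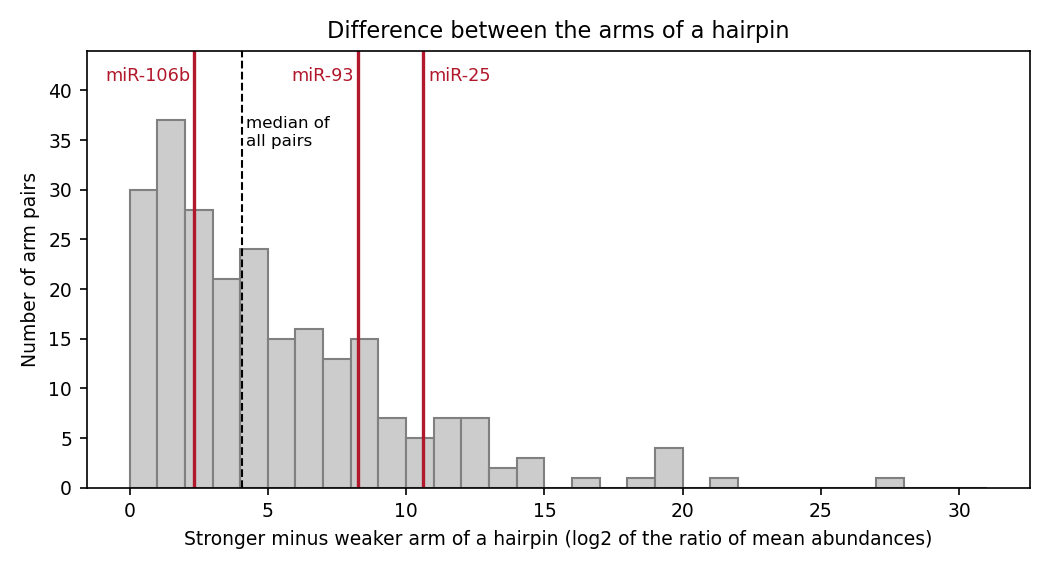
Number of arm pairs (vertical axis) by the log2 difference between the stronger and the weaker arm (horizontal axis) over 238 pairs, with red lines at the 3 Mcm7 hairpins and a dashed line at the median of 4.06. miR-106b lies below the median, at 2.34, and miR-93 and miR-25 lie above it, at 8.25 and 10.60.

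The means come from whole cultures, and miRNAs listed as markers of other cell types were read beside those of cardiomyocytes. Of 6 cardiomyocyte names, 5 had rows (miR-1 is listed as miR-1a), and these summed to 1.51% of the reads, led by miR-208b with 11734 RPM. The 2 smooth muscle miRNAs had 13.4%, nearly all of it miR-143, while the miR-145 row had 694 RPM. The fibroblast miRNAs miR-199a and miR-214 had 0.453% and the endothelial miR-126 0.477%. The 4 blood names and the 7 epithelial names summed to 0.00829% and 0.00511%. Such sums are shares of reads and do not give proportions of cells. The members, at 0.319%, are known to be expressed in many cell types, so their level in cardiomyocytes and in other cells of the cultures cannot be told apart, nor can fewer cells and less RNA per cell.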

How the data were processed

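Small RNA of cultured mouse cardiomyocytes was sequenced on a HiSeq2500 from TruSeq Small RNA libraries. According to the methods, the authors trimmed and filtered the reads, kept tags of 18 to 30 nt, mapped them with Bowtie2, added the hits per gene ID with in-house scripts and used edgeR, while the submitters' processing notes name Bowtie2 and DESeq. The genome build, versions, normalization and filters are not given in the sources used here. The authors deposited 1 table of 689 miRNAs, with the mean abundance on a log2 scale and 4 columns of their own comparison of stretched with static cultures (fold changes in log2 and in linear form, unadjusted and adjusted P values). Those 4 columns were not used, there were 0 columns of single samples, and the depth and its precision are unknown, so that the planned count test was not run.

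Shares were computed as 2 to the power of the deposited log2 value, then ranked, summed by seed and compared between arms. Older names were matched by hand to RefSeq mature miRNAs, the asterisk marking the opposite arm, and 3 of the 8 member names had no row. Positions are from RefSeq GRCm38.p6 and hosts from GENCODE M21. The ranks and arm differences were tested on simulated data, and a group share on a small made-up example. Other steps were not tested in this way. Members and lists were chosen with earlier results of these data known. Named miRNAs are the members, their neighbours in rank, miRNAs with the same seed, the miR-17-92 miRNAs and listed neighbour clusters and markers. Alternatives were rescaling, another logarithm base, other seeds, and other rows or arm pairs; pairs without the lowest rows were added after the data were seen. Python 3.11.15, numpy 2.4.6, pandas 2.3.3 and matplotlib 3.10.9 were used.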

Additional observations from a re-analysis of the deposited data

How the results depend on the processing

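The summed share of the members, 0.319%, was 0.321% when rescaled to a total of 100% and 0.322% when each of the 14 sets of identical rows was counted once as well. Read as base 10 it would be 2.35e-07%, in a table whose shares then sum to 0.00756. Leaving out rows under 1 RPM could move no rank of the 6 members that remained, because ranks count from the highest row. Among 408 main arms, miR-25, miR-93, miR-92b, miR-106b and miR-18b ranked 33, 86, 88, 128 and 365. The members' part of each seed group was the same with bases 2 to 7. Leaving out asterisk rows could not change it, because the seed groups hold none. It was also the same with identical rows counted once, and no member row shares its value with another row. The percent of other arm pairs with a smaller difference was 87.8 for miR-25, 78.1 for miR-93 and 32.1 for miR-106b. It was 86.1, 72.1 and 23.6 for pairs with a stronger arm of at least 10 RPM, 83.8, 70.7 and 23.4 for asterisk names, and 91.6, 81.5 and 33.5 without the 25 lowest rows, a setting chosen after seeing the data. No compared cluster was wider than the Mcm7 cluster with miR-17-92 alone (0), and 5 were among the 8 other groups.

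No paired analysis was possible because only means over the experiment were used. For the same reason other normalizations, filters on counts and fits without single replicates were not run. With the depth unknown, the rarest members, miR-93* and miR-18b, are the least certain.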
